A study of Homo sapiens with 27 samples.

Results

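The transcripts described here were 10 long noncoding RNAs: MALAT1, NEAT1, TUG1, GAS5, SNHG1, SNHG5, MIR22HG, H19, KCNQ1OT1 and MEG3. They were taken by gene symbol from the 55882 symbols of the count tables, and all 10 symbols were present. Poly(A)-selected RNA was sequenced from U2OS cells, a human osteosarcoma line, as the cultures expanded. The 3 lines were the control, which the sample titles call WT and the protocols describe as carrying an empty pLKO.1 vector, and MMP2sh1 (23) and MMP2sh2 (26), which carried shRNAs against MMP2, a matrix metalloproteinase that was studied here as a protease of the histone H3 tail. Each line was harvested at day −2 (subconfluent), day 0 (confluent) and day +2 (overconfluent), with 3 replicates in each of 9 groups and 27 libraries in all. According to the study's methods the lines were made by lentiviral transduction and puromycin selection. Each shRNA was represented by 1 line.

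Long noncoding RNAs are transcripts that are not known to act through a protein product. MALAT1 accumulates at nuclear speckles, which store splicing factors, and NEAT1 is the scaffold on which paraspeckles assemble. GAS5, SNHG1 and SNHG5 are host genes of small nucleolar RNAs (snoRNAs). The snoRNAs are released from their introns and guide the modification of ribosomal RNA, while the spliced exons of GAS5 are known to be degraded by nonsense-mediated decay in growing cells and to accumulate in arrested cells. H19, MEG3 and KCNQ1OT1 are imprinted transcripts, and MIR22HG is the host transcript of the microRNA miR-22. TUG1 is a widely expressed transcript that the gene annotation used here lists as protein coding.

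The library totals ranged from 33580129 to 59374327 reads assigned to genes, and the 10 transcripts together took 0.0663% to 0.162% of those reads. The targeted gene, MMP2, was lower than in the control at every day in both shRNA lines, at 0.173-fold to 0.198-fold of the control in MMP2sh1 and 0.481-fold to 0.617-fold in MMP2sh2. Of 10 osteosarcoma and mesenchymal markers, 5 averaged at least 1 CPM (the read count scaled to a common library size), whereas the markers SP7, COL1A2, IBSP, BGLAP and TWIST1 stayed below that level. The 6 epithelial markers summed to 391 to 804 CPM, and KRT8, KRT18, CLDN4 and EPCAM averaged at least 1 CPM. KRT8 had group means of 238 to 549 CPM and KRT18 of 111 to 177 CPM. KRT19 was below 1 CPM in every library. CDH1 had group means of 0.104 to 1.65 CPM, highest in the control at day −2. The 5 haematopoietic markers summed to at most 1.67 CPM. Of 4 endothelial markers 3 were found, and VWF alone averaged at least 1 CPM, at group means of 2.14 to 4.33 CPM. The share of reads that fell in no annotated feature ran from 5.69% to 7.11% in subconfluent, from 7.79% to 9.14% in confluent and from 7.53% to 8.79% in overconfluent cultures, so it separated day −2 from the later days in the same way as several transcripts below. Its part in those changes was not tested.

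The sequences that bear on how these transcripts are captured and grouped are given first. MALAT1 lies at chr11:65265111-65275544 on the plus strand (GRCh37, GENCODE release 44 lifted to that build), and its mature RNA is known to end in an A-rich tract held in a triple helix by upstream U-rich motifs rather than in a poly(A) tail. The stretch chr11:65273479-65273601 around the longest run of A in the last 2500 bases of the locus is shown with that run of 13 A, and the 3 runs of T of at least 5 bases before it, in capitals.
MALAT1: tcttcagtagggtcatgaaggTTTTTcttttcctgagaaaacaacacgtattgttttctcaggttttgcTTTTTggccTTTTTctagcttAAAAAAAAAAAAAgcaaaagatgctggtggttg
The same search in NEAT1, at chr11:65190245-65213011 on the plus strand, found no run of A longer than 5. It looked for uninterrupted runs alone, so it cannot show whether NEAT1 ends in an A-rich tract with other bases in it. In this annotation, 83.7% of the MALAT1 exon bases are overlapped on the opposite strand by TALAM1 and a further antisense gene. The counts were unstranded and left out reads that overlap more than 1 gene. If the annotation used for counting, which is not given, held these genes, reads over the shared bases were dropped. The MALAT1 level would then be understated. Otherwise reads from the 2 strands were counted together.

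The snoRNA hosts belong, with most ribosomal protein genes, to the transcripts that are known to begin with a C followed by a pyrimidine tract, the 5′ terminal oligopyrimidine motif. The starts of the canonical GENCODE transcripts are shown with 20 bases before and 30 bases from the start, and the longest run of C and T that touches the bases from 5 before to 10 after the start is in capitals.
GAS5, chr1:173837098-173837147, GRCh37, minus strand: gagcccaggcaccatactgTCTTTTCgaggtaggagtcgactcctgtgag
SNHG1, chr11:62623365-62623414, GRCh37, minus strand: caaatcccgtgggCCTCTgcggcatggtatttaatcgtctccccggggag
SNHG5, chr6:86388437-86388486, GRCh37, minus strand: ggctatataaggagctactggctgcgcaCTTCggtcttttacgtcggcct
The starts in RefSeq (GRCh38.p14) lie elsewhere in the same loci and gave other runs.
GAS5, chr1:173869016-173869065, GRCh38.p14, minus strand: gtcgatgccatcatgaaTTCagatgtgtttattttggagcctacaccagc
SNHG1, chr11:62855856-62855905, GRCh38.p14, minus strand: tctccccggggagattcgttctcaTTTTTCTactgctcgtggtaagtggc
SNHG5, chr6:85678704-85678753, GRCh38.p14, minus strand: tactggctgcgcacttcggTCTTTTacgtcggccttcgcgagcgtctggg
The run was 7 bases in GAS5, 5 in SNHG1 and 4 in SNHG5 at the GENCODE starts, and 3, 7 and 6 bases at the RefSeq starts. Runs of at least 7 bases were found at 19.2% of 18466 GENCODE long noncoding RNA starts and at 17.9% of 35116 RefSeq starts. A run of this length is thus common, and its presence depended on the start model. These shares count runs anywhere in that window with any start base, and not the motif, which begins with a C. The start base was C, G and G in GAS5, SNHG1 and SNHG5 at the GENCODE starts, and A, C and C at the RefSeq starts. The marked run held a start C in GAS5 at the GENCODE start and in SNHG5 at the RefSeq start.

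MIR22HG lies at chr17:1614741-1620468 on the minus strand (GRCh37). Its microRNAs are shown with the seed, bases 2 to 8, in capitals, since it is the seed that pairs with target messages (RefSeq, GRCh38.p14). The libraries counted the host transcript and not the mature microRNAs.
hsa-miR-22-3p, chr17:1713914-1713935, minus strand: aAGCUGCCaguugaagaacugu
hsa-miR-22-5p, chr17:1713952-1713973, minus strand: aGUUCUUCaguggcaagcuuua

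Of the 10 transcripts, 9 were counted in every library and MEG3 had 0 reads in all 27, which allows up to 3 reads in a library, or 0.0505 to 0.0893 CPM. The counts per library were 8819 to 38778 for NEAT1, 5668 to 12567 for TUG1, 2097 to 7634 for MALAT1, 2643 to 6957 for GAS5, 2531 to 6329 for SNHG1 and 661 to 1496 for SNHG5. The remaining counted transcripts were low, with 316 to 892 reads for MIR22HG, 152 to 670 for KCNQ1OT1 and 68 to 302 for H19, so the description of these RNAs as abundant did not hold for them. The translation factor gene EEF1G, which is known to be expressed in every cell, was also listed at 0 in all libraries, so the 0 of MEG3 limits the reads counted for it and not its expression.

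Per kilobase of all annotated exon bases, the mean level over the 27 libraries was 24.8 CPM for NEAT1, 22.8 for SNHG1, 20.5 for TUG1, 19.4 for GAS5 and 11.99 for MALAT1. The values of single libraries overlapped between all neighbours in that order, and the order changed with the day. At day −2 SNHG1 came first in every line, at 22.2, 24.4 and 24.04 in the control, MMP2sh1 and MMP2sh2, against 15.5, 12.7 and 17.2 for NEAT1, which came first in 4 of the 9 groups, the control and MMP2sh2 at day 0 and +2. The lower levels on the same scale were 4.11 for MIR22HG, 1.92 for SNHG5, 1.14 for H19 and 0.0831 for KCNQ1OT1. With the length of the canonical transcript in its place, a choice made after the data were seen, GAS5 came first at 125 CPM per kilobase, from 98.9 to 154 in single libraries, and SNHG1 second at 78.0. KCNQ1OT1 moved to 11.3, because the annotation gives it 92625 exon bases in all and 679 in the canonical transcript. The order per length thus depended on the length model for the spliced host genes and KCNQ1OT1. For NEAT1 the 2 models give 22767 and 22743 bases, and for MALAT1 both give 10434, so their values could hardly move. Lengths of other NEAT1 transcripts were not tried, so its place in the order rests on the long form. The run of 13 A in MALAT1 lies 1963 bases before the annotated end of the locus, and a length that stops there was not tried.

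**Figure D1:**
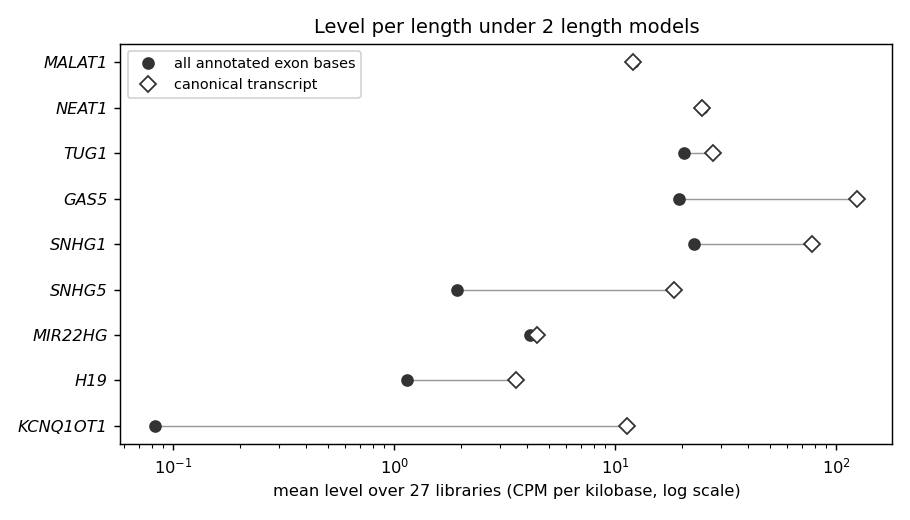
Mean level over 27 libraries in CPM per kilobase (log scale) for the 9 counted transcripts, with filled circles for the length of all annotated exon bases and open diamonds for the canonical transcript. The symbols coincide for MALAT1 and NEAT1 and lie far apart for KCNQ1OT1, at 0.0831 and 11.3, and for GAS5, at 19.4 and 125.

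The first question was how the transcripts changed as each line expanded. A call is an adjusted p under 0.05 in the quasi-likelihood test of edgeR over all genes tested. From day −2 to day 0, all 9 counted transcripts were called in the control, 8 higher and 1 lower, against 35.5% of all genes tested (16.4% higher and 19.1% lower). The calls numbered 8 of 9 in MMP2sh1 (32.7% of all genes) and 9 of 9 in MMP2sh2 (30.3%). From day 0 to day +2, 5, 5 and 6 of the 9 were called in the control, MMP2sh1 and MMP2sh2, against 41.4%, 46.0% and 45.5% of all genes. Over the whole course from day −2 to day +2 the counts were 7, 6 and 7, against 56.8%, 54.9% and 54.7%. The median log2 fold change over the whole course was 0.33, 0.60 and 0.51 for the 9 transcripts in the control, MMP2sh1 and MMP2sh2, and 0.03, 0.04 and 0.05 for all genes tested.

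NEAT1 and MALAT1, the nuclear body transcripts, rose in every line before confluence. NEAT1 in the control was at 325, 395 and 337 CPM at day −2, 606, 661 and 637 at day 0 and 704, 688 and 775 at day +2. In MMP2sh2 it was at 403, 402 and 366, then 828, 905 and 675, then 863, 912 and 652 CPM. The day −2 libraries lay below all later libraries of the same line. NEAT1 in MMP2sh1 was at 238, 355 and 273 CPM at day −2, 514, 671 and 529 at day 0 and 610, 515 and 375 at day +2, so replicates 2 of day −2 and 3 of day +2 came close to each other. The log2 fold change of NEAT1 from day −2 to day +2 was 1.02 ± 0.06 (SE), 0.77 ± 0.13 and 1.06 ± 0.08 in the control, MMP2sh1 and MMP2sh2, with adjusted p = 4.6e-14, 1.5e-05 and 5.7e-13 in edgeR.

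MALAT1 followed the same course at a lower level. It was at 67.8, 81.9 and 93.8 CPM in the control at day −2, 134, 149 and 142 at day 0 and 151, 145 and 163 at day +2. The log2 fold change from day −2 to day 0 was 0.81 ± 0.07 in the control, 0.87 ± 0.09 in MMP2sh1 and 0.85 ± 0.07 in MMP2sh2, with adjusted p = 1.4e-09, 1.6e-07 and 4.7e-09 in edgeR. From day 0 to day +2 it was called in none of the lines, at 0.12, 0.11 and −0.0029, although it reached a call in the control without replicate 2 of day 0 or of day +2 (0.16 each) and in MMP2sh1 without replicate 3 of day +2 (0.18). The rise of NEAT1 in the second step was called in the control alone, at 0.19 ± 0.05, and not with all 27 libraries in 1 fit, at 0.17 with adjusted p = 0.30. NEAT1 in MMP2sh1 was at −0.20 ± 0.11 in that step (adjusted p = 0.15 in edgeR), which became a call without a filter on low counts (adjusted p = 4.3e-05) and, at −0.36, without replicate 1 of day +2 (adjusted p = 5.0e-04). In MMP2sh2 it was at 0.02, and at 0.16 with a call without replicate 3 of day +2 (adjusted p = 0.028). Across the 27 libraries the log2 levels of MALAT1 and NEAT1 had a Pearson r of 0.95, the highest of the 36 pairs of counted transcripts; the points share the 3 days and the 3 lines.

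Since MALAT1 and the long form of NEAT1 lack a regular poly(A) tail, other RNAs without one were followed beside them. Of 16 such RNAs, 3 averaged at least 1 CPM, RNVU1-7 had 0 reads in all libraries, and the sum was carried by RN7SL1 and RN7SL2, the RNA of the signal recognition particle. Their sum in the control, in CPM, ran from 68.8 to 95.2 before confluence, from 72.2 to 146 on reaching it and from 111 to 137 beyond it. It reached 98.4 to 527 CPM in MMP2sh1 and 60.1 to 399 in MMP2sh2 at day +2, where single libraries of 1 group differed severalfold. From day −2 to day +2, RN7SK, the 7SK small nuclear RNA, rose by log2 fold changes of 1.53, 1.85 and 1.44 in the control, MMP2sh1 and MMP2sh2, RN7SL2 by 0.53, 1.98 and 1.68 and RN7SL1 by 0.67, 2.05 and 1.30, all called in edgeR, and none of these RNAs was called lower in all 3 lines. In the control, 5 of the 16 were tested over the whole course. Of these, 3 were called higher and 1 lower, against 28.1% and 28.6% of all genes tested. From day −2 to day 0, where MALAT1 and NEAT1 rose, the median log2 fold change of those tested was −0.04, −0.02 and 0.41 in the control, MMP2sh1 and MMP2sh2. From day 0 to day +2 it was 0.50, 1.33 and 0.87. RN7SK, RN7SL1 and RN7SL2 thus shared the direction of MALAT1 and NEAT1 over the whole course. The medians of the steps cover all RNAs of the list that were tested and are not values of these 3. In the step to day 0, 1 of 4 RNAs tested was called higher in the control, 1 of 5 in MMP2sh1 and 0 of 4 in MMP2sh2. Of all genes tested, 35.5%, 32.7% and 30.3% were called in that step. The part of these RNAs in the changes of MALAT1 and NEAT1 was not tested.

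TUG1, at chr22:31365231-31375381 on the plus strand (GRCh37), rose in both steps and in every line. It was at 174, 174 and 180 CPM in the control at day −2 and at 249.6, 226.1 and 225 at day +2, and at 160, 169 and 157 against 246, 252 and 248 in MMP2sh1. The groups did not overlap. Over the whole course its log2 fold change was 0.39 ± 0.05, 0.60 ± 0.06 and 0.51 ± 0.06 in the control, MMP2sh1 and MMP2sh2, with adjusted p = 1.2e-07, 6.7e-09 and 2.7e-08 in edgeR. Of the steps, the control rise from day 0 to day +2 was the least stable, at 0.14, and lost its call without replicate 1 or 3 of day 0 (0.13 and 0.12) or replicate 1 of day +2 (0.10), and in the single fit of all libraries (0.12). The MMP2sh2 rise from day −2 to day 0, at 0.20, lost its call without replicate 1 of day 0 (0.18) and was 0.13 without replicate 3 of day −2.

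H19, at chr11:2016396-2025782 on the minus strand (GRCh37), is an imprinted growth-restraining transcript and the host of miR-675. It was at 2.34, 3.43 and 2.88 CPM in the control at day −2 and at 6.08, 5.21 and 7.34 at day +2. Its log2 fold change was 1.10 ± 0.19 in the control, 0.95 ± 0.24 in MMP2sh1 and 0.82 ± 0.21 in MMP2sh2, with adjusted p = 1.6e-05, 1.8e-03 and 1.7e-03 in edgeR. H19 had the largest estimate of the 9 transcripts in the control, next to 1.02 for NEAT1, and the fewest reads. The change from day −2 to day 0 was called in all 3 lines, and in MMP2sh1, at 0.80, it lost its call without replicate 2 of day −2 (0.66) or replicate 3 of day 0 (0.58).

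KCNQ1OT1, at chr11:2618538-2721233 on the minus strand (GRCh37), is the antisense transcript of the KCNQ1 locus that silences neighbouring genes in cis. Counts were unstranded, so reads from the opposite strand of this locus, which holds KCNQ1, could be counted with KCNQ1OT1. Its count peaked at day 0 in each line. The control was at 6.10, 5.65 and 5.69 CPM at day −2, 11.1, 10.3 and 8.28 at day 0 and 5.44, 5.38 and 3.70 at day +2. The day 0 libraries lay above both other days. MMP2sh2 was at 6.87, 7.75 and 4.58, then 13.5, 12.4 and 10.9, then 6.61, 7.24 and 7.55 CPM. In MMP2sh1 the groups overlapped, since the lowest day 0 library, at 7.70 CPM, lay below the highest libraries of day −2 and day +2, at 7.76 and 7.83. The log2 fold change from day 0 to day +2 was −1.03 ± 0.15, −0.66 ± 0.16 and −0.77 ± 0.12 in the control, MMP2sh1 and MMP2sh2 (adjusted p = 2.5e-06, 1.5e-03 and 6.3e-06 in edgeR). The preceding rise was 0.76, 0.46 and 0.94, and the MMP2sh1 value lost its call without replicate 1 or 2 of day 0 (0.35 and 0.42). Day +2 did not differ from day −2 past the threshold in any line.

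MIR22HG showed the opposite course, with its lowest level at day 0. The control was at 11.7, 12.9 and 13.5 CPM at day −2, 6.82, 7.20 and 9.13 at day 0 and 13.1, 12.5 and 9.82 at day +2. MMP2sh1 was at 12.03, 12.1 and 11.0, then 8.55, 10.3 and 9.55, then 21.3, 21.4 and 21.6 CPM. MMP2sh2 was at 13.3, 12.3 and 11.4, then 9.05, 9.40 and 10.4, then 17.3, 17.5 and 19.4 CPM. In the control the libraries of day +2 overlapped those of day −2, whereas all 6 libraries of the shRNA lines at day +2 lay above every other library. From day 0 to day +2 the log2 fold change was 0.62 ± 0.13, 1.18 ± 0.10 and 0.91 ± 0.10 in the control, MMP2sh1 and MMP2sh2 (adjusted p = 3.2e-04, 6.7e-10 and 2.1e-08 in edgeR). From day −2 to day 0 it was −0.72 ± 0.12, −0.31 ± 0.11 and −0.35 ± 0.12 (adjusted p = 3.5e-05, 0.042 and 0.022).

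The last 2 of these falls depended on single libraries. The MMP2sh1 fall of MIR22HG was not called without replicate 1 or 2 of day −2 (−0.30 and −0.29) or replicate 1 or 3 of day 0 (−0.24 and −0.32), nor without a filter on low counts (−0.31) or with 10 counts required in every library (−0.30). The MMP2sh2 fall was not called without replicate 1 of day −2 (−0.29) or replicate 1 or 2 of day 0 (−0.31 and −0.34).

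GAS5, at chr1:173827697-173838020 on the minus strand (GRCh37), rose to confluence in every line and then held in the control but fell in the shRNA lines. The control was at 76.3, 78.2 and 76.0 CPM at day −2, 97.0, 92.6 and 100.2 at day 0 and 92.0, 98.4 and 103 at day +2. MMP2sh1 was at 92.2, 95.8 and 87.6, then 115, 119 and 113, then 98.7, 88.2 and 87.6 CPM. MMP2sh2 was at 81.7, 86.4 and 86.6, then 115, 107 and 109, then 94.7, 91.1 and 101 CPM. In the control the day −2 libraries lay below all others, and in both shRNA lines the day 0 libraries lay above all others of that line. The log2 fold change of GAS5 from day −2 to day 0 was 0.33 ± 0.05, 0.33 ± 0.05 and 0.40 ± 0.06 (adjusted p = 7.3e-06, 5.7e-05 and 6.5e-06 in edgeR). From day 0 to day +2 it was 0.02 ± 0.05, −0.34 ± 0.06 and −0.20 ± 0.06, with adjusted p = 0.78, 2.3e-05 and 3.9e-03. Tested directly, the difference of this step from the control was called for MMP2sh1 and not for MMP2sh2, as given below. The net change of 0.18 in MMP2sh2 over the whole course lost its call without replicate 1 of day −2 (0.13) or replicate 1 or 3 of day +2 (0.18 and 0.14).

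SNHG1, at chr11:62619450-62623425 on the minus strand (GRCh37), was the only one of the 9 transcripts that fell in all 3 lines from day −2 to day +2. It was at 86.6, 98.2 and 80.1 CPM in the control at day −2 and 78.2, 76.6 and 70.5 at day +2, without overlap. The values at day +2 were 71.1, 71.3 and 61.2 in MMP2sh1 and 72.4, 65.8 and 74.9 in MMP2sh2, all below the same lines at day −2, where the lowest library was at 91.9 and 92.6 CPM. The log2 fold change was −0.25 ± 0.06, −0.54 ± 0.07 and −0.42 ± 0.07 (adjusted p = 1.3e-03, 1.2e-06 and 2.9e-06 in edgeR). The fall took place after confluence, at −0.41, −0.72 and −0.62 from day 0 to day +2. A small rise preceded it, at 0.18, 0.20 and 0.21. That rise lost its call in the control without replicate 1 or 3 of day −2 (0.16 and 0.12) or replicate 3 of day 0 (0.12) and in the single fit of all libraries (0.18). It was also lost in MMP2sh1 without replicate 1 of day −2 (0.15) or 2 of day 0 (0.11), and in MMP2sh2 without replicate 2 of day 0 (0.17).

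SNHG5, at chr6:86360209-86388650 on the minus strand (GRCh37), was the lowest of the 3 host genes in reads. Its mean was 20.5 ± 1.44 (SD, n = 3), 24.2 ± 0.994 and 25.1 ± 2.62 CPM in the control at day −2, 0 and +2, and 21.8 ± 2.80, 30.2 ± 1.51 and 23.4 ± 1.37 CPM in MMP2sh2. In MMP2sh2 the log2 fold change was 0.48 ± 0.09 to day 0 and −0.36 ± 0.08 from there to day +2 (adjusted p = 1.9e-04 and 4.7e-04 in edgeR). In MMP2sh1 none of the steps was called, with a gain in the second step without replicate 1 of day +2 (−0.27, adjusted p = 0.014). The control rise to day 0, at 0.24, lost its call without replicate 1 or 3 of day −2 (0.24 and 0.20), replicate 3 of day 0 (0.21) or in the single fit (0.23), and the control change to day +2, at 0.28, lost it without replicate 2 of day +2 (0.22).

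**Figure D2:**
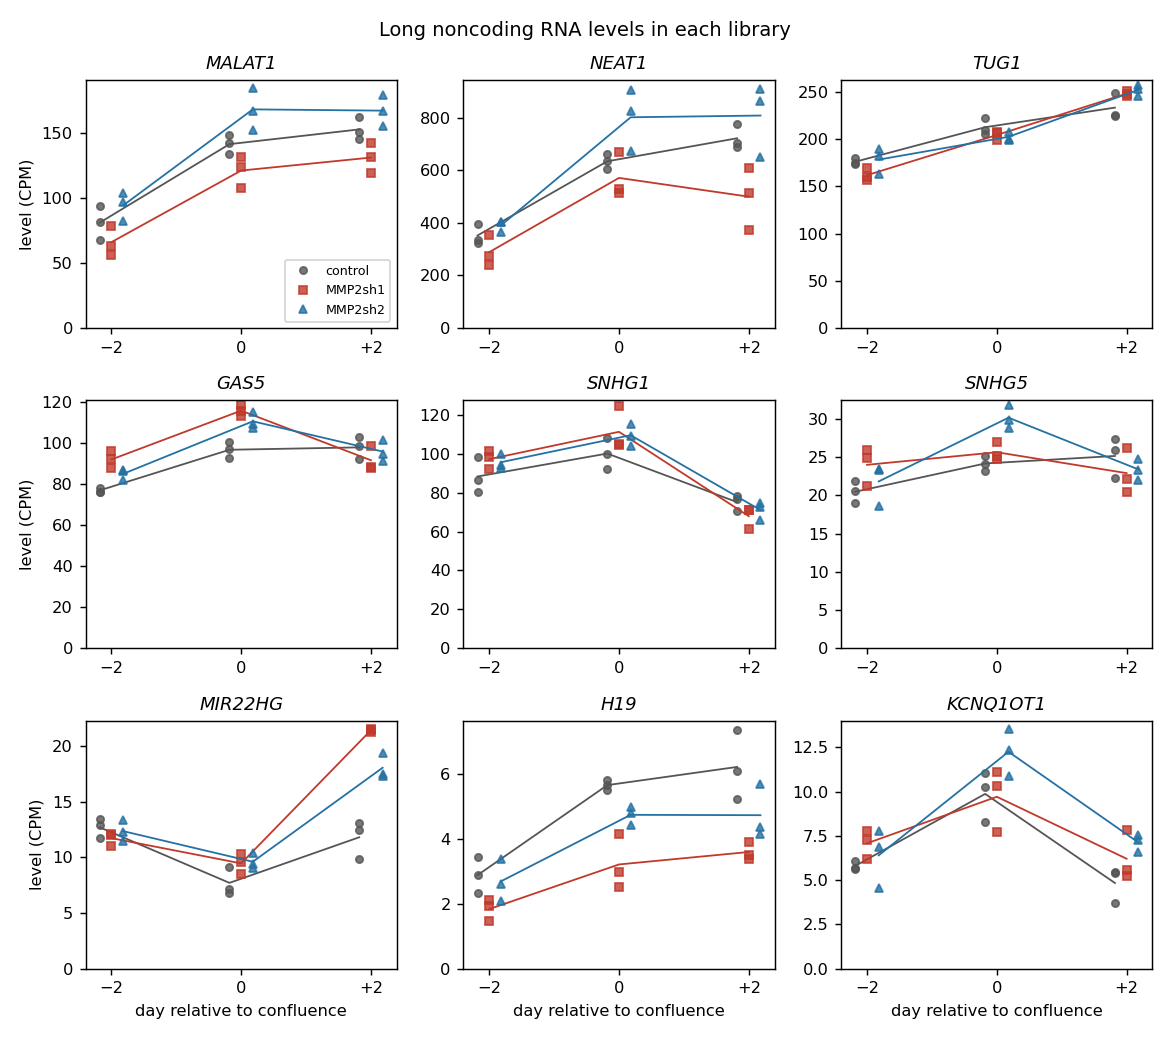
Level in CPM (each vertical axis starts at 0) against the day relative to confluence for the 9 counted transcripts, with a point for each library and lines through the means of 3 replicates. GAS5 in MMP2sh1 goes from 91.9 to 116 and back to 91.5 CPM, while the control goes from 76.8 to 96.6 and 97.8, and MIR22HG at day +2 separates MMP2sh1 (21.4) and MMP2sh2 (18.1) from the control (11.8).

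**Figure D3:**
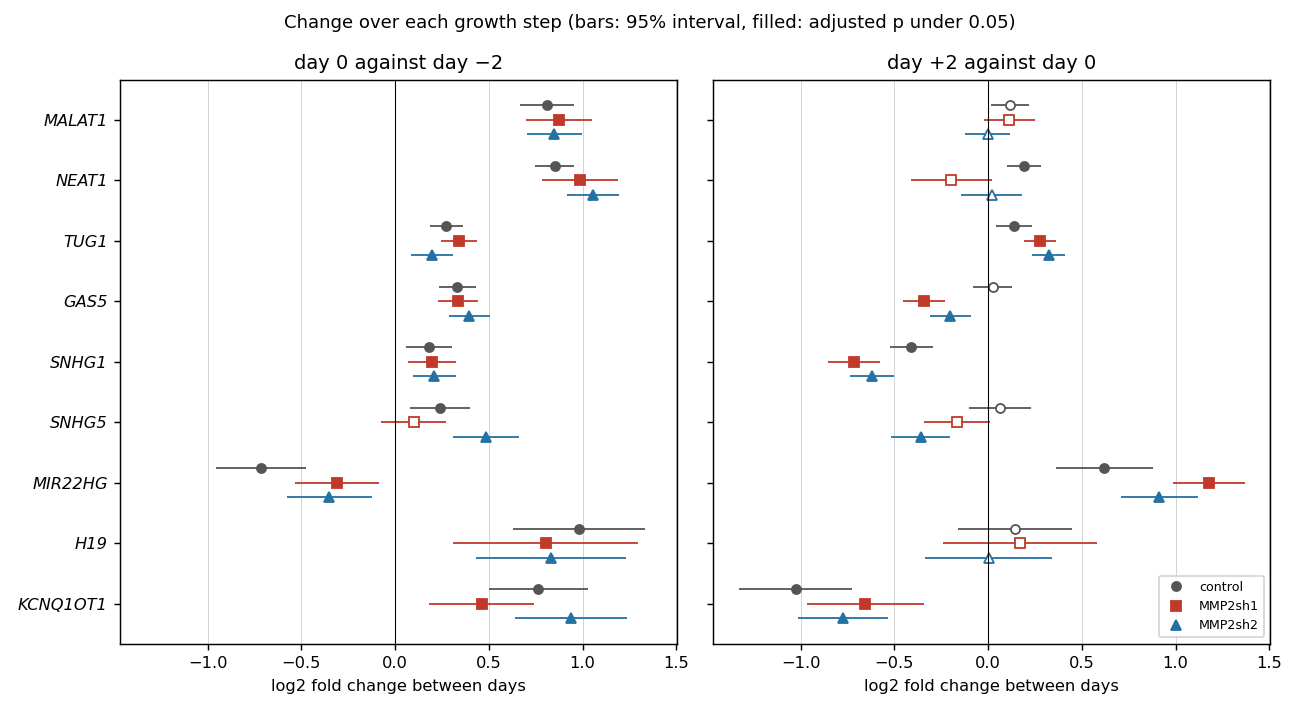
Log2 fold change over each growth step in each line, with 95% intervals and filled symbols for calls. MIR22HG and KCNQ1OT1 turn in opposite directions between the steps, from −0.72 to 0.62 and from 0.76 to −1.03 in the control.

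The second question was whether the shRNA lines differed from the control at the same day. The 2 lines share the control libraries, so their values are given side by side and are not independent. At day −2, 2 of 9 transcripts were called in MMP2sh1 (11.6% of all genes tested) and 0 of 9 in MMP2sh2 (11.0%) by edgeR. In MMP2sh2 the count was also 0 by DESeq2 and became 1, MALAT1, without a filter on low counts, and 3 of the 9 had an unadjusted p under 0.05. At day 0 the counts were 3 and 4 (16.8% and 12.9%), and at day +2 they were 4 and 2 (14.8% and 6.32%). The median log2 difference of the 9 transcripts was between −0.14 and −0.02 in MMP2sh1 and between 0.10 and 0.25 in MMP2sh2, with medians of all genes within 0.01 of 0.

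GAS5 was higher in MMP2sh1 than in the control before and at confluence, and not at day +2. At day −2 the lowest MMP2sh1 library, at 87.6 CPM, lay above the highest control library, at 78.2, and at day 0 the corresponding values were 113 and 100.2. The log2 difference was 0.26 ± 0.06 at day −2 and 0.26 ± 0.05 at day 0 (adjusted p = 4.9e-03 and 1.3e-04 in edgeR), and −0.10 ± 0.06 at day +2 (adjusted p = 0.36). In MMP2sh2 it was 0.12 ± 0.06, 0.19 ± 0.05 and −0.03 ± 0.06, of which only the value at day 0 was called (adjusted p = 9.1e-03). This last call was lost without replicate 2 of the control (0.16) or replicate 1 of MMP2sh2 (0.15). SNHG5 was 0.31 ± 0.08 higher in MMP2sh2 at day 0 (adjusted p = 4.4e-03), with 31.8, 29.9 and 28.8 CPM against 23.2, 24.1 and 25.2, and 0.27 with adjusted p = 0.050 without replicate 1 of MMP2sh2. SNHG1 was called in neither line at any day. Its log2 difference at day 0 was 0.15 in MMP2sh1 (adjusted p = 0.074) and became a call without a filter on low counts (adjusted p = 0.019), with 10 counts required in every library (adjusted p = 0.049) and without replicate 3 of the control (0.21) or replicate 1 or 3 of MMP2sh1 (0.20 and 0.19). In MMP2sh2 it was 0.13 (adjusted p = 0.14), and 0.18 with a call without replicate 3 of the control (adjusted p = 0.038).

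MALAT1 and NEAT1 deviated from the control in opposite directions in the 2 lines. NEAT1 in MMP2sh1 had log2 differences at day −2, 0 and +2 of −0.29 ± 0.09, −0.15 ± 0.06 and −0.53 ± 0.09 (adjusted p = 0.039, 0.060 and 9.4e-05 in edgeR). In MMP2sh2 the log2 differences were 0.13 ± 0.06, 0.33 ± 0.06 and 0.17 ± 0.07 (adjusted p = 0.19, 6.2e-05 and 0.14). For MALAT1 they were −0.29 ± 0.10, −0.23 ± 0.06 and −0.22 ± 0.06 in MMP2sh1 (adjusted p = 0.053, 3.2e-03 and 0.015) and 0.20 ± 0.09, 0.25 ± 0.05 and 0.14 ± 0.06 in MMP2sh2 (adjusted p = 0.15, 1.7e-03 and 0.19).

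Single libraries and filters also decided values that were not called. NEAT1 in MMP2sh1 at day 0 became a call without a filter on low counts (adjusted p = 2.6e-03), with 10 counts required in every library (adjusted p = 0.041) and, at −0.28, without replicate 2 of MMP2sh1 (adjusted p = 9.2e-05). In MMP2sh2 NEAT1 became a call at day −2 without replicate 2 of the control (0.22, adjusted p = 0.044) or replicate 3 of MMP2sh2 (0.19, adjusted p = 0.047). At day +2 it did so without a filter (0.17, adjusted p = 0.017) and without replicate 3 of MMP2sh2 (0.31, adjusted p = 1.3e-05). MALAT1 in MMP2sh1 at day −2 became a call without a filter (adjusted p = 3.8e-04), with 10 counts in every library (adjusted p = 0.031), without replicate 1 of the control (−0.42) or replicate 2 of MMP2sh1 (−0.44) and in the single fit of all libraries (adjusted p = 0.042). MALAT1 in MMP2sh2 became a call at day −2 without a filter (0.20) or without replicate 3 of the control or of MMP2sh2 (0.33 and 0.30), and at day +2 without replicate 3 of MMP2sh2 (0.19).

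The calls for these 2 transcripts were among the least stable. For NEAT1, DESeq2 gave adjusted p = 0.35 in MMP2sh1 at day −2, 0.056 in MMP2sh2 at day 0 and 0.055 in MMP2sh1 at day +2, and the first call was also lost without replicate 2 or 3 of the control (−0.20 and −0.32) or replicate 1 or 3 of MMP2sh1 (−0.17 and −0.25), with −0.47 without replicate 2 of MMP2sh1. For MALAT1 the MMP2sh1 calls were lost without replicate 1 of MMP2sh1 at day 0 (−0.15) and without replicate 3 of the control (−0.17) or of MMP2sh1 (−0.16) at day +2, and the MMP2sh2 call at day 0 without replicate 1 of MMP2sh2 (0.17). With all 27 libraries in 1 fit, the 3 MALAT1 calls at day 0 and +2 and the NEAT1 calls other than that of MMP2sh1 at day +2 were lost (adjusted p = 0.062 to 0.14).

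The direct comparison of the shRNA lines did not use the control. In it 2 of 9 transcripts were called at day −2 (10.7% of all genes tested), 4 at day 0 (18.5%) and 2 at day +2 (7.86%), and all 8 were lower in MMP2sh1 (5.69%, 9.62% and 3.27% of genes were called lower). NEAT1 had log2 differences at day −2, 0 and +2 of −0.43 ± 0.09, −0.48 ± 0.07 and −0.70 ± 0.12 (adjusted p = 1.8e-03, 1.9e-06 and 2.3e-04 in edgeR). For MALAT1 they were −0.50 ± 0.09, −0.47 ± 0.06 and −0.36 ± 0.07 (adjusted p = 4.3e-04, 1.8e-07 and 1.1e-03). The groups did not overlap at any day for either transcript. The NEAT1 call at day −2 was not made by DESeq2 (adjusted p = 0.11). The other calls were H19 and SNHG5 at day 0, at −0.57 ± 0.19 and −0.23 ± 0.07 (adjusted p = 0.030 and 0.026). The H19 call was lost without replicate 1 or 2 of either line (−0.41, −0.53, −0.56 and −0.54). The SNHG5 call was lost without replicate 1 or 2 of MMP2sh1 (−0.21 and −0.22), replicate 1 of MMP2sh2 (−0.19) and in the single fit (−0.24).

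H19 was lower than the control in MMP2sh1, at 2.52, 2.97 and 4.14 CPM against 5.48, 5.65 and 5.81 at day 0 and at 3.91, 3.36 and 3.50 against 6.08, 5.21 and 7.34 at day +2. The groups did not overlap. The log2 difference was −0.65 ± 0.25, −0.83 ± 0.18 and −0.79 ± 0.17 at day −2, 0 and +2 (adjusted p = 0.099, 9.9e-04 and 1.6e-03 in edgeR), and the value at day −2 had adjusted p = 0.036 in the single fit of all libraries. In MMP2sh2 it was −0.11, −0.26 and −0.39 and was not called. IGF2, the growth factor gene that shares an imprinting control region with H19, was lower in MMP2sh1 by log2 differences of −0.48, −0.55 and −0.54 and in MMP2sh2 by −0.33 and −0.38 at day 0 and +2, all called, with −0.28 at day −2 in MMP2sh2 (adjusted p = 0.067).

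MIR22HG and KCNQ1OT1 exceeded the control at day +2. The log2 difference of MIR22HG was 0.86 ± 0.10 in MMP2sh1, a 1.82-fold level, and 0.62 ± 0.11 in MMP2sh2, 1.54-fold (adjusted p = 3.7e-07 and 7.2e-05 in edgeR), and neither line was called at day −2 or day 0. Every alternative setting and every omission of 1 library kept both calls at day +2. Without replicate 3 of the control at day 0, both lines were called at that day as well (0.43 and 0.45, adjusted p = 0.031 and 0.030). The KCNQ1OT1 difference was 0.57 ± 0.16 in MMP2sh2 (adjusted p = 0.019), with 6.61, 7.24 and 7.55 CPM against 5.44, 5.38 and 3.70, and lost its call without replicate 3 of the control (0.41) or replicate 2 or 3 of MMP2sh2 (0.56 and 0.54). In MMP2sh1 it was 0.36 ± 0.18 (adjusted p = 0.19). TUG1 was called in neither line, with log2 differences from −0.12 to 0.12.

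**Figure D4:**
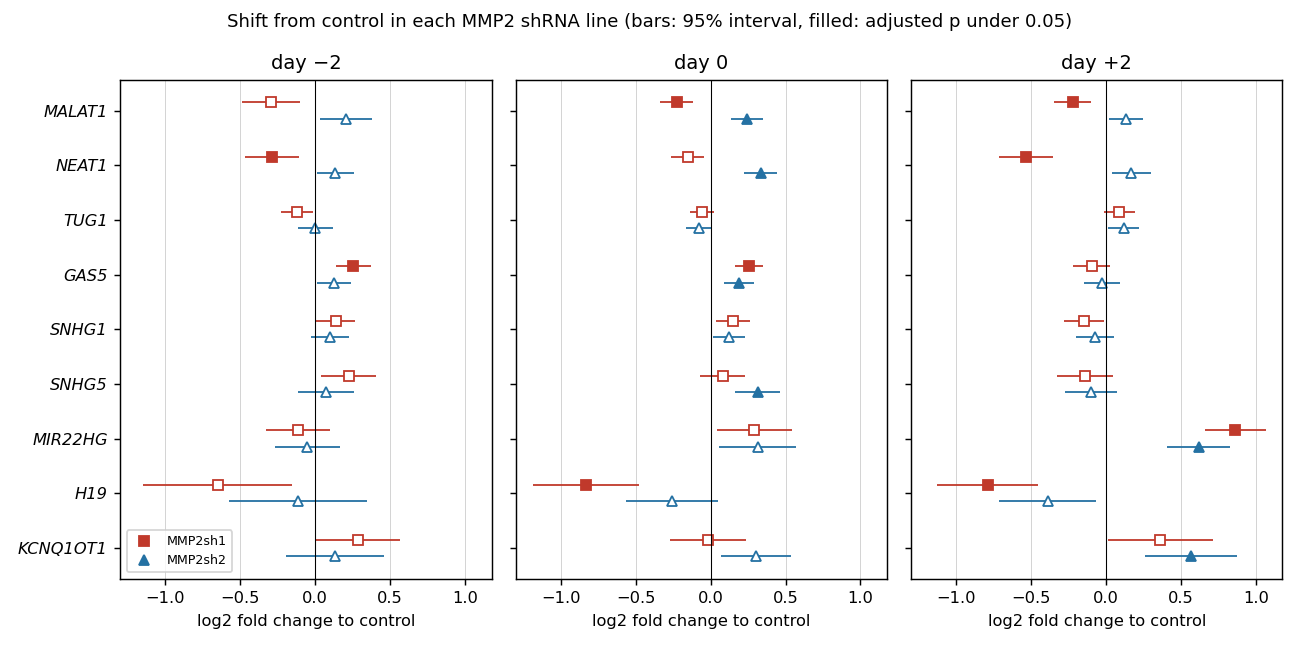
Log2 difference from the control at each day for MMP2sh1 (squares) and MMP2sh2 (triangles), with 95% intervals and filled symbols for calls. MIR22HG at day +2 lies at 0.86 and 0.62, NEAT1 at −0.53 and 0.17, and GAS5 moves from 0.26 at day −2 to −0.10 at day +2 in MMP2sh1.

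Whether the course over time differed between lines was tested by the interaction of line and day. From day −2 to day +2, 2 of 9 transcripts were called for MMP2sh1 against the control (7.40% of all genes tested) and 1 for MMP2sh2 (4.98%). The change in GAS5 was lower in MMP2sh1 than in the control, with an interaction of −0.35 ± 0.09 (adjusted p = 0.012 in edgeR), and −0.31 with adjusted p = 0.056 without replicate 3 of the control at day +2. In MMP2sh2 it was −0.15 ± 0.08 (adjusted p = 0.33), with a 95% interval of −0.32 to 0.01. The change in MIR22HG was higher than in the control by 0.98 ± 0.15 in MMP2sh1 and 0.67 ± 0.16 in MMP2sh2 (adjusted p = 7.0e-05 and 7.5e-03), and both calls were kept in every alternative setting and with each library left out.

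The steps were tested separately after the data had been seen. None of the 9 transcripts was called for the step from day −2 to day 0 in either line (1.35% and 3.69% of all genes tested), although MIR22HG had an unadjusted p under 0.05 in both and NEAT1 and SNHG5 in MMP2sh2. DESeq2 called none of them either. From day 0 to day +2, 2 were called for MMP2sh1 (4.66%) and 1 for MMP2sh2 (4.76%). GAS5 had an interaction of −0.35 ± 0.08 in MMP2sh1 (adjusted p = 5.6e-03 in edgeR). In MMP2sh2 the GAS5 interaction was −0.22 ± 0.08 and was not called (adjusted p = 0.12). It became a call without replicate 1 of the control or replicate 3 of MMP2sh2 at day +2 (−0.26 each, adjusted p = 0.045 and 0.048). MIR22HG was at 0.57 ± 0.17 in MMP2sh1 (adjusted p = 0.042), and SNHG5 at −0.42 ± 0.12 in MMP2sh2 (adjusted p = 0.027). The MIR22HG call was lost in 7 of the fits with 1 library left out, with values from 0.44 to 0.60, and the SNHG5 call in 6, with values from −0.42 to −0.35, and in the single fit of all libraries (−0.43, adjusted p = 0.061).

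The other snoRNA host genes gave a wider view of the class. Of 17 listed, 14 were tested. At day −2, 5 of the 14 were called higher than the control in MMP2sh1 and 3 in MMP2sh2, with 0 lower in either. The median log2 difference was 0.14 in both lines, and 11.6% and 11.0% of all genes were called in either direction. At day 0, 7 of the 14 were called higher than the control in MMP2sh1 and 7 in MMP2sh2, with 0 and 1 called lower, against 8.26% and 7.07% of all genes called higher, and the median log2 difference was 0.22 and 0.28 against 0.00 for all genes. At day +2 none was higher and 1 was lower in each line, with medians of −0.04. From day −2 to day +2, 4 rose and 7 fell in the control, 2 rose and 8 fell in MMP2sh1 and 3 rose and 8 fell in MMP2sh2, with medians of −0.37, −0.51 and −0.50. Of all genes, 28.1%, 27.3% and 27.7% rose and 28.6%, 27.7% and 27.1% fell in the control, MMP2sh1 and MMP2sh2.

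The hosts with the largest changes in all 3 lines were SNHG16 (−0.57, −0.96 and −0.999 on the log2 scale in the control, MMP2sh1 and MMP2sh2), SNHG15 (−0.54, −0.91 and −0.89), SNHG10 (−0.61, −1.02 and −0.65) and SNHG7 (−0.51, −0.95 and −0.66). SNHG1 thus moved in the direction of most of these hosts, and GAS5 and SNHG5 in the control did not. Of the 20 snoRNAs of the members' introns, 13 symbols were found, and at most 1 (SNORD78, within GAS5) passed the filter in a comparison. The snoRNAs themselves were therefore not measured by these libraries.

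**Figure D5:**
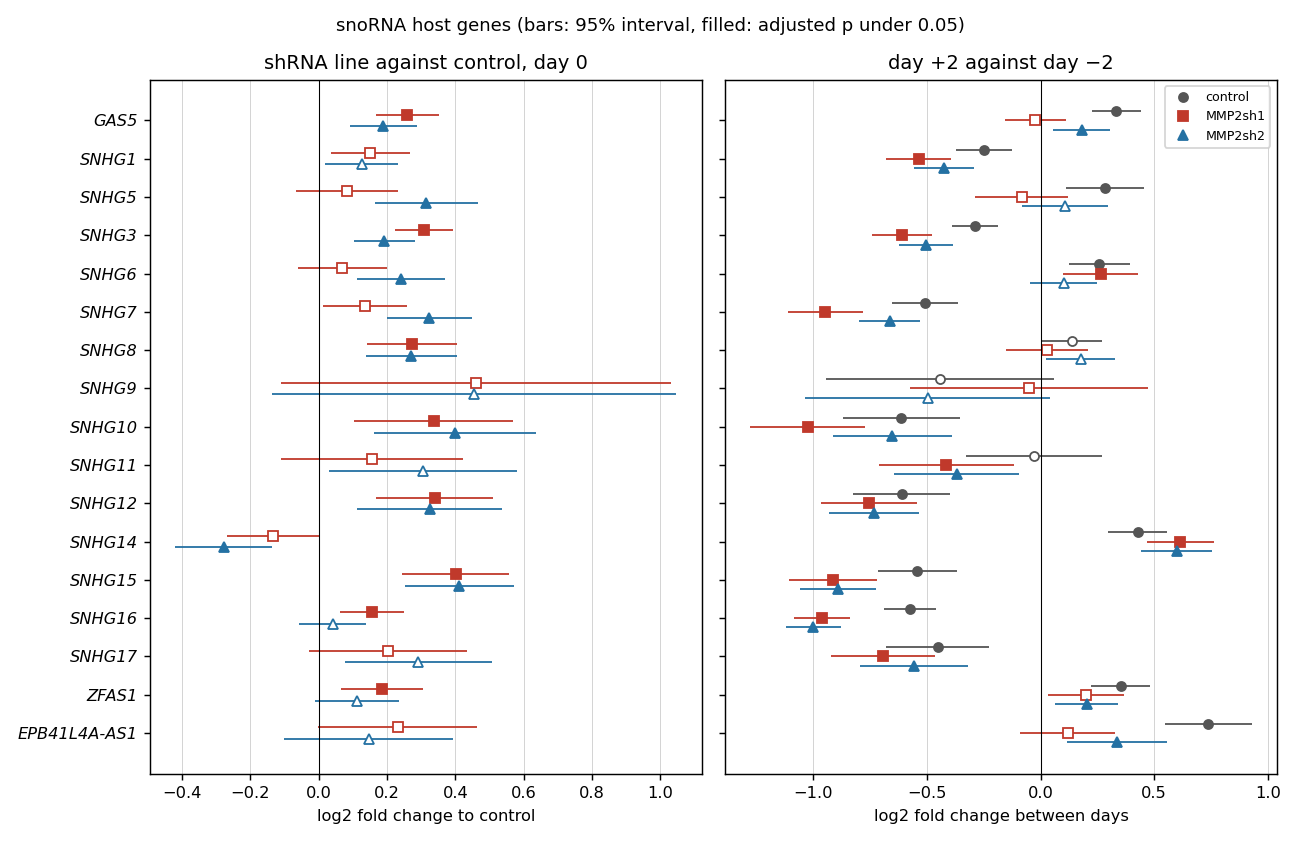
Log2 fold changes of GAS5, SNHG1, SNHG5 and the 14 other snoRNA host genes tested, against the control at day 0 (left) and from day −2 to day +2 (right), with 95% intervals and filled symbols for calls. Most hosts lie above 0 on the left and below 0 on the right, where GAS5, at 0.33, −0.02 and 0.18, lies to the right of SNHG1, at −0.25, −0.54 and −0.42.

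The remaining lists followed the partners of these RNAs. Among 14 nonsense-mediated decay factors, which degrade spliced GAS5, 7 were lower at day +2 than at day −2 in all 3 lines and 0 were higher, including the exon junction factor EIF4A3 (−0.52, −0.76 and −0.78) and the helicase UPF1 (−0.36, −0.37 and −0.37). The background for a call with 1 sign in all 3 lines was 41.0% of genes, 19.4% higher and 21.6% lower. Among 16 tested translation factor genes with a 5′ terminal oligopyrimidine tract, 6 fell and 1 rose in all 3 lines: the elongation factor EEF2 was at −0.23, −0.46 and −0.37, and TPT1, the translationally controlled tumour protein, at 0.80, 0.63 and 0.77. Of 12 paraspeckle proteins, the partners of NEAT1, 5 fell in all lines and 0 rose, led by RBM14 (−0.47, −0.54 and −0.71), and NONO, which binds NEAT1, was called in none of the 3 lines. Of 12 nuclear speckle proteins 5 rose and 4 fell, led by the splicing factor kinase CLK1 (0.99, 1.05 and 1.02) and PNISR (0.93, 0.84 and 0.90).

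Genes beside the 10 transcripts were examined as well. Of 15 imprinted neighbours 9 were tested, of which 4 rose and 2 fell in all lines, with the transporter gene SLC22A18 at 1.28, 1.37 and 1.22, the cell cycle inhibitor CDKN1C at 0.84, 0.40 and 0.72 and IGF2 at 0.68, 0.61 and 0.58. DLK1 and DIO3, in the imprinted region of MEG3, had 0 reads. Of 13 other adjacent genes 4 rose and 4 fell. The background for both lists was 19.4% of all genes higher and 21.6% lower in all 3 lines. LTBP3, a latent TGF-β binding protein gene near MALAT1, was at 1.99, 2.16 and 1.45. WDR81, next to MIR22HG, rose by 0.31, 0.67 and 0.52, and like MIR22HG it was higher than the control at day +2, by 0.29 and 0.24 (adjusted p = 1.8e-03 and 0.016 in edgeR). Its interaction was called for MMP2sh1 (0.37, adjusted p = 0.025) and not for MMP2sh2 (0.21, adjusted p = 0.21). At day +2, 4 of the 13 adjacent genes were called higher than the control and 2 lower in MMP2sh1, and 2 and 2 in MMP2sh2. Of all genes tested at that day, 14.8% were called in MMP2sh1 and 6.32% in MMP2sh2. GAS5-AS1 averaged under 1 CPM.

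Of 22 further long noncoding RNAs, 19 symbols were found, and 17, 17 and 18 were tested in the control, MMP2sh1 and MMP2sh2. In all 3 lines 7 rose and 3 fell, against 19.4% of all genes higher and 21.6% lower. MIAT, a nuclear long noncoding RNA, was at 2.94, 4.81 and 4.69, DNM3OS at 1.82, 1.81 and 1.962, HOTAIR, transcribed from the HOXC cluster, at 1.05, 0.86 and 0.82 and DANCR at −1.06, −1.38 and −1.13. The median log2 fold change of those tested was 0.47, 0.41 and 0.49 in the control, MMP2sh1 and MMP2sh2, and 0.03, 0.04 and 0.05 for all genes tested.

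The genes most like each transcript were found by the Pearson r of log2 CPM over the 27 libraries, among 15136 genes that averaged at least 1 CPM. The closest to GAS5 were NACA (0.85), RPL7 (0.80) and EFEMP1 (0.80), and the closest to SNHG5 were RPL6 (0.77), GAS5 (0.76) and RPL24 (0.75), so that ribosomal protein genes appeared for both. MALAT1 had NEAT1 (0.95), ZNF251 (0.95) and FAM153B (0.94), NEAT1 had CYP4F32P (0.97), MALAT1 (0.95) and VAMP1 (0.95), and TUG1 had WSB1 (0.97), TTLL3 (0.96) and SYNE2 (0.96). For MIR22HG they were PTPN21 (0.94), LOXL4 (0.92) and EGFR (0.92), for H19 ALDH7A1 (0.90), DMRTA1 (0.90) and KIF26B (0.89) and for SNHG1 RP1-30G7.2 (0.92), MCU (0.91) and PLCB2 (0.91). For KCNQ1OT1, BDP1 (0.81) and ATP8A1 (0.80) were among the closest. These libraries share days and lines, so the values describe shared courses. In bulk RNA, fewer cells that hold a transcript and less of it per cell cannot be told apart.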

How the data were processed

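Poly(A)-selected RNA from 27 libraries of U2OS lines was measured. According to the study's methods, the authors used Trim Galore 0.6.0 for trimming, STAR 2.7.3a for alignment against hg19 and HTSeq 2.0.0 for counting reads over exons, without strand and with a minimum alignment quality of 10. The deposited files hold unnormalised read counts by gene symbol. The annotation release is not given in the sources used here. The summary lines of HTSeq, 16.8% to 19.1% of reads, were left out of totals and tests. Multi-mapped and ambiguous reads were not counted, which affects overlapping genes.

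Genes were filtered with filterByExpr (minimum count 10), scaled by TMM and tested with the quasi-likelihood test of edgeR 4.0.16 (R 4.3.3), with Benjamini-Hochberg adjustment over all genes of a comparison. Each comparison used only its own 6 libraries, or 12 for an interaction. The main designs comprised 20 comparisons; 4 interactions of single steps were added after the data were seen. Errors of log2 fold changes are standard errors, and 95% intervals assume a normal error. On simulated counts for the control from day −2 to day +2, 68.5% of 200 genes changed 2-fold were called among 18607 genes, with 8 false calls, and for the MMP2sh1 interaction 56% among 19936 genes, with 7. Levels are TMM-scaled CPM of all 27 libraries. Alternatives were DESeq2 1.42.0, median-of-ratios factors, 2 other filters, a replicate block, a single fit of all libraries, each library left out and 2 other totals for CPM. Per list, the 4 genes with the largest mean change among those called with 1 sign in all 3 lines were named, and NONO, SNORD78, GAS5-AS1, DLK1, DIO3 and EEF1G, outside that rule, were named after their values were seen. A gene among those most like KCNQ1OT1 is not reported here. The members and lists were chosen with earlier results of these data known. Replicates within a group differed by more than sampling noise. The floor of 3 counts covers counting error only.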

Additional observations from a re-analysis of the deposited data

Results flagged for a closer look

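The course over time of 3 transcripts differed between an shRNA line and the control by a test of the difference itself, the interaction of line and day in edgeR. No group held more than 3 libraries, so single libraries were not tested as outliers.

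The change of GAS5 from day −2 to day +2 was lower in MMP2sh1 than in the control, with an interaction of −0.35 on the log2 scale (adjusted p = 0.012), and the same size, −0.35, was found from day 0 to day +2 (adjusted p = 5.6e-03). MMP2sh1 stood above the control at day −2 and day 0 and not at day +2.

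The change of MIR22HG from day −2 to day +2 was higher than in the control by 0.98 in MMP2sh1 and 0.67 in MMP2sh2, where the control itself was at −0.12 and was not called. From day 0 to day +2 it was higher by 0.57 in MMP2sh1 (adjusted p = 0.042). The control libraries are shared by these tests.

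SNHG5 fell in MMP2sh2 from day 0 to day +2, at −0.36, whereas the control was at 0.07 and was not called, with an interaction of −0.42 (adjusted p = 0.027), and −0.43 with adjusted p = 0.061 in the single fit of all libraries.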

How the results depend on the processing

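Of 216 log2 fold changes of members, 91 were called in edgeR. None of the called values changed sign in any alternative, while uncalled values changed sign in 10 of 1296 values under other settings and in 77 of 1620 with 1 library left out. Calls were lost in 19 of the former and 63 of the latter, and gained in 22 and 34. The count of calls against the control was 15 and ranged from 12 to 19 with 1 library left out. The calls between days within a line, over both steps and the whole course together, numbered 62 (59 to 64). Those between the shRNA lines numbered 8 (6 to 9) and those of the interactions over the whole course 3 (2 to 4). Without a filter on low counts the interactions numbered 5, and those of the single steps 5 in place of 3, with NEAT1 and SNHG1 gained in both. The single-step count ranged from 1 to 5 with 1 library left out, with 5 without replicate 1 of the control or of MMP2sh1 at day +2 and 1 without replicate 2 or 3 of the control at day +2. The cause was not tested. Same-numbered replicates correlated between −0.094 and 0.149 over 54 pairs, so the numbers do not pair the samples. With the replicate block the counts were 17, 63, 9, 3 and 2, and the values no longer called were MALAT1 in MMP2sh1 against the control at day +2 (−0.22, adjusted p = 0.055) and the MIR22HG interaction of MMP2sh1 from day 0 to day +2 (0.57, adjusted p = 0.066). CPM on library totals without TMM moved 8 of 90 group levels by more than 1 SD, and leaving out mitochondrial genes moved 33. H19, KCNQ1OT1 and MIR22HG rest on few reads, which limits the changes that could be called.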
